A study of Rattus norvegicus with 2 samples.

Results

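The S100 family consists of small, mostly calcium-binding proteins, and 10 of its genes were followed across the cells of the rat carotid artery: S100a1, S100a4, S100a6, S100a8, S100a9, S100a10, S100a11, S100a13, S100a16 and S100b. Members were taken by their symbols from the 32623 genes listed in the deposited matrix, and all 10 were found there. The series holds 2 single-cell libraries made by droplet capture (10x Genomics). The control library held the left carotid arteries of 2 male SD (Sprague-Dawley) rats, with no treatment in the labels. The case library held the right carotid arteries of the same 2 rats after balloon injury, in which an inflated catheter is drawn through the vessel to strip and stretch its wall. Arteries were collected 28 days after injury, and the labels give an age of 12 weeks for both groups. The arteries of both rats were pooled in each library, so every group was 1 library. No difference between rats can be seen, and no test was made. The 2 barcode suffixes carry no group name and were matched to the libraries by their number of barcodes, so every direction below rests on that match. Intervals below are exact 95% intervals that cover counting error only.

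S100 proteins hold 2 EF-hand motifs per chain and usually work as dimers. Most of them, but not all, bind calcium, which opens a hydrophobic face for their target proteins. Inside the cell they act on the cytoskeleton, on annexins at membranes and on calcium pumps, while some are released and bind cell surface receptors. In the vessel wall S100A4 is known from dedifferentiated, migrating vascular smooth muscle cells (VSMCs), S100A8 and S100A9 from neutrophils and monocytes, and S100B from Schwann cells.

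In RefSeq (GRCr8) 9 of the 10 genes lie on chromosome 2, in the order S100a1, S100a13, S100a16, S100a4, S100a6, S100a8, S100a9, S100a11 and S100a10, and S100b lies on chromosome 20. A promoter sequence was found for 7 of the 10. Those of S100a4 and S100a6 are shown because these were the 2 members higher in the case library in VSMC-like, fibroblast-like and macrophage-like cells. That of S100a11 is shown because it was the member that was lower in endothelial-like and fibroblast-like as well as VSMC-like cells. Each runs from 250 bases before to 50 bases after the start of the gene, 5′ to 3′ on the plus strand, and capitals mark TATAAA or GGGCGG.
S100a4 (chr2:178388279-178388578, plus strand): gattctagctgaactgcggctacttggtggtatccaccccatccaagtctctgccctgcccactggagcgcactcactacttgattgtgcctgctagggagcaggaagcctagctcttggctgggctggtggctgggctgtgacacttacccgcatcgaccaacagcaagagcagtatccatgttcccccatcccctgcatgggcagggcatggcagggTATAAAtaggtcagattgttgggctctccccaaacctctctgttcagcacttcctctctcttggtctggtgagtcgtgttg
S100a6 (chr2:178398287-178398586, plus strand): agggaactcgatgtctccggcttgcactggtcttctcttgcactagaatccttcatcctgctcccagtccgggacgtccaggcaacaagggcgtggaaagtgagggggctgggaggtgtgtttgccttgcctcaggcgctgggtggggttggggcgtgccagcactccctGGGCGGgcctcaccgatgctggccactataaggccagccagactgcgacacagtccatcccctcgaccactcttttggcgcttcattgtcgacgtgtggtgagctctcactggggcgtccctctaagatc
S100a11 (chr2:181874882-181875181, plus strand): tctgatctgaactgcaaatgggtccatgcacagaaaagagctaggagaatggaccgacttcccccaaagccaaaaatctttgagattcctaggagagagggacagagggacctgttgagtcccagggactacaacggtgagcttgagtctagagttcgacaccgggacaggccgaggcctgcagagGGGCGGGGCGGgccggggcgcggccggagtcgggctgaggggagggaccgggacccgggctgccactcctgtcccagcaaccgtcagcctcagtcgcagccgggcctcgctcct
On either strand TATAAA, the core of a TATA box, stood in 14.2% of all 33469 promoters of this length, and among the 7 members in those of S100a4 and S100a9. GGGCGG, the core of a GC box, stood in 33.1% of all promoters, with 1 match in S100a6, 1 in S100a13 and 2 in S100a11. The 2 matches in S100a11 share 1 base. TGANTCA, the core of an AP-1 site, was in 7.33% of all promoters and in 0 of the 7, and the CArG box, to which serum response factor binds in contractile genes, was in 1.64% of all promoters and in 0 of the 7. TGGGAA was in 25.7% of all promoters, with 2 matches in S100a9 and 1 in S100a16, and the kappaB motif in 19.3%, with 1 match in S100a4, 1 in S100a6 and 2 in S100a11. A match is a description of the letters in this window and not a binding site.

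After filtering, 2229 control and 4890 case cells were kept, with a median of 10919 and 5173.5 UMIs (unique molecular identifiers, 1 for each captured transcript). Classes were set from marker genes that held no S100 gene: 1173 control and 2654 case cells were VSMC-like, 714 and 1423 fibroblast-like, 145 and 137 carried markers of both, 55 and 249 were endothelial-like, 33 and 93 macrophage-like and 18 and 50 Schwann-like. VSMC markers took 2.58% of UMIs in control VSMC-like cells and 2.05% in case ones, but also 0.0548% to 0.146% in endothelial-like and macrophage-like cells. Only 1 kept cell, in the control library, was neutrophil-like by the marker rule. Macrophage markers took more of its UMIs (0.0787%) than neutrophil markers (0.0394%), so its type is uncertain. To set a level, the UMIs of a gene were summed over the cells of a class and divided by all UMIs of these cells, and the result was scaled to 1000000 UMIs (CPM). A gene was counted as higher or lower in case when its CPM differed by at least 1.5-fold, its interval lay on that side of 0 and the mean of both libraries was at least 100 CPM. A gene under 100 CPM in 1 library can thus enter through the other, in which it is higher.

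Together the 10 genes gave 0.443% of all UMIs in control VSMC-like cells and 0.726% in case ones. The share was 0.508% and 0.55% in fibroblast-like cells, 0.752% and 0.91% in endothelial-like cells, and 0.659% and 1.18% in Schwann-like cells. It was lowest in macrophage-like cells, with 0.161% in control and 0.378% in case. The composition also differed between the libraries, in shares of counted UMIs that take no account of transcript length. In control VSMC-like cells S100a6 gave 53.4% of the family's UMIs, S100a4 21.1% and S100a11 16.1%, whereas in case 62% came from S100a6, 29.1% from S100a4 and 4.38% from S100a11. In fibroblast-like cells the share of S100a10 was 40.6% in control and 19.8% in case. In macrophage-like cells S100a10 gave 68.5% in control and S100a4 gave 50.7% in case.

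**Figure D1:**
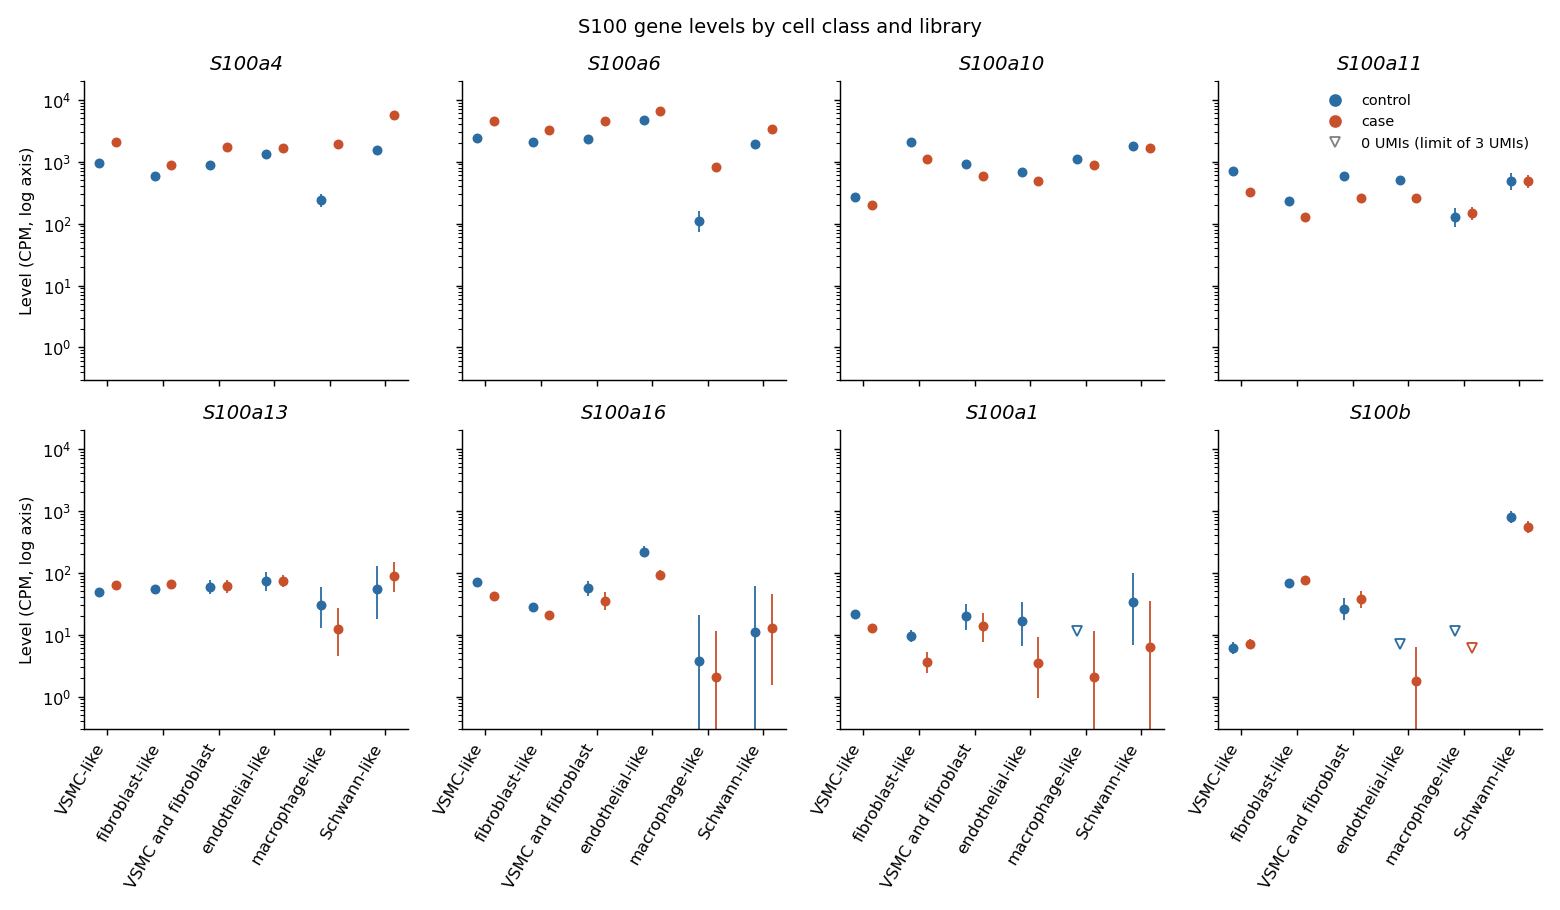
Level of 8 S100 genes (CPM, log axis) in 6 cell classes of the control (blue) and case (orange) library, with bars for the exact 95% Poisson interval and open triangles at the limit of 3 UMIs where no UMI was counted. S100a4 and S100a6 were higher in case in every class shown, S100a10 was lower in case in each class but the Schwann-like one, where the intervals overlap, and was lowest in VSMC-like cells, and S100b stood out in Schwann-like cells with 798 CPM in control and 544 CPM in case.

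S100a4, known for binding non-muscle myosin and for cell motility, was at 936 CPM (919 to 952) in control and 2112 CPM (2089 to 2135) in case VSMC-like cells, and S100a6, which binds annexins and the calcyclin-binding protein, at 2364 (2338 to 2391) and 4502 CPM (4468 to 4536). S100a11, an annexin A1 partner, went the other way, with 714 CPM (700 to 729) in control and 318 (309 to 327) in case. The log2 ratios of case over control were 1.17 (1.14 to 1.21) for S100a4, 0.93 (0.91 to 0.95) for S100a6 and −1.17 (−1.22 to −1.12) for S100a11. Of the 4 members with at least 100 CPM in VSMC-like cells, 2 were counted as higher, where 9.83% of the 1333 genes at this level were, and 1 as lower, where 16.5% were. The fourth, S100a10, the light chain of the annexin A2 heterotetramer, was at 268 CPM in control and 203 CPM in case, with a ratio of −0.40 (−0.47 to −0.33). The median ratio was 0.26 over these 4 members and −0.13 over all 1333 genes. These classes differ in depth, with a median of 11875 UMIs per control and 5398.5 per case VSMC-like cell. With each cell thinned to 1000 UMIs, at least 1 S100a4 UMI was found in 45.8% (42.9 to 48.7) of control and 74.8% (73.1 to 76.5) of case VSMC-like cells, and at least 1 S100a11 UMI in 44.1% and 26.1%. Without thinning these shares were 83.8% and 94.8% for S100a4 and 86.9% and 75.7% for S100a11. S100a11 has 5 annotated pseudogenes and 2 genes named as like it in the reference, and S100a10 has 1 pseudogene, so that reads shared with copies leave the levels of both uncertain.

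The remaining members were low in VSMC-like cells. S100a16 was at 71.8 CPM (67.3 to 76.5) in control and 41.6 (38.4 to 45.0) in case, a ratio of −0.79 (−0.93 to −0.64), which was −0.18 with cells thinned to 1000 UMIs. S100a13, which carries FGF1 out of the cell without a signal peptide, was at 48.7 (45.0 to 52.6) and 63.0 (59.0 to 67.1). S100a1, a partner of the ryanodine receptor and the SERCA pump in striated muscle, was at 21.9 and 12.7 CPM, a ratio of −0.78 (−1.06 to −0.52) that was −0.37 after thinning. The thinned ratios come from 1 random draw and carry no interval. After thinning S100a16 was found in 5.46% of control and 4.67% of case cells, and S100a1 in only 1.62% and 1.32%. The thinned S100a1 ratio thus rests on few UMIs. Thinning also gave each cell the same weight, whereas the main ratios weight cells by their UMIs. No effect of depth can thus be read from the thinned ratio of S100a1 or of S100a16. S100b was at 6.18 and 7.03 CPM.

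**Figure D2:**
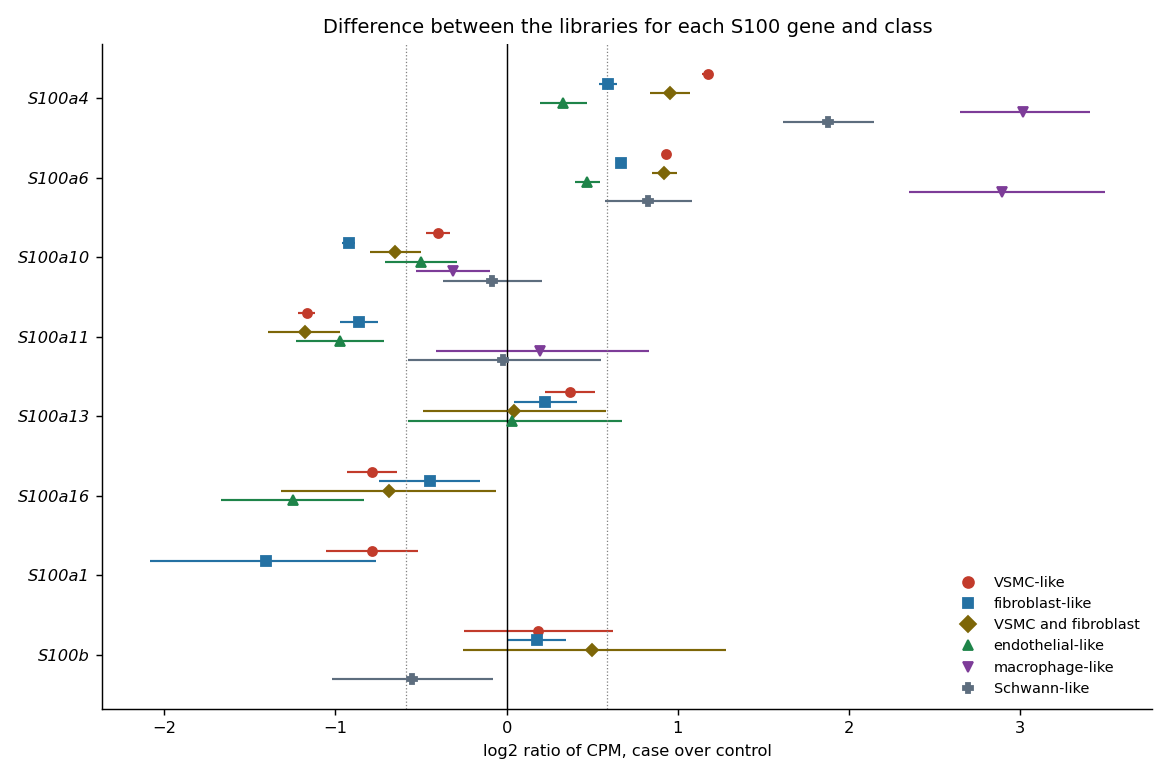
Log2 ratio of CPM, case over control, for 8 S100 genes in 6 cell classes, with exact 95% intervals (counting error only), where both libraries held at least 20 UMIs of the gene; dotted lines mark 1.5-fold. The ratios of S100a4 and S100a6 lie right of 0 in each class and are farthest right in macrophage-like cells (3.01 and 2.90), while S100a10 and S100a11 lie left of 0 in the VSMC-like, the fibroblast-like and the endothelial-like class.

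Within VSMC-like cells the members differed along the contractile genes. Cells of each library were split into 5 bins of equal size by the summed share of Acta2, Tagln, Myl9, Cnn1 and Myh11. In case S100a4 was at 2603 CPM (2539 to 2668) in the bin with the lowest contractile share and went down from bin to bin to 1856 (1810 to 1903) in the highest. S100a6 ran the opposite way, from 3627 (3551 to 3704) to 5061 CPM (4986 to 5138). S100a10 went from 355 (332 to 380) to 125 CPM (113 to 137), and S100a11 stayed between 303 and 333 CPM. S100b also went down, from 16.3 (11.6 to 22.2) to 2.38 CPM (1.03 to 4.69). Both S100a10 (1087 CPM) and S100b (76.9 CPM) were higher in case fibroblast-like cells, and the part of fibroblast RNA in these bins was not tested. In control S100a6 was at 1633 CPM in the lowest and 2773 CPM in the highest bin, and S100a10 at 392 CPM in the second and 201 CPM in the highest. S100a4 in control showed no such order when all VSMC-like cells were used, with 720, 1104, 927, 946 and 847 CPM from the lowest to the highest bin. The lowest control bin had a median of only 2074 UMIs per cell, against 12230 to 13428.5 in the others. When the bins were drawn from deeper cells only, S100a4 in case was at 2704 CPM in the lowest and 1858 CPM in the highest bin, and in control at 1067, 946, 1004, 923 and 816 CPM, so that the low value of the lowest control bin was not seen there. In every bin the S100a4 and S100a6 levels of the case library lay above those of the control library.

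**Figure D3:**
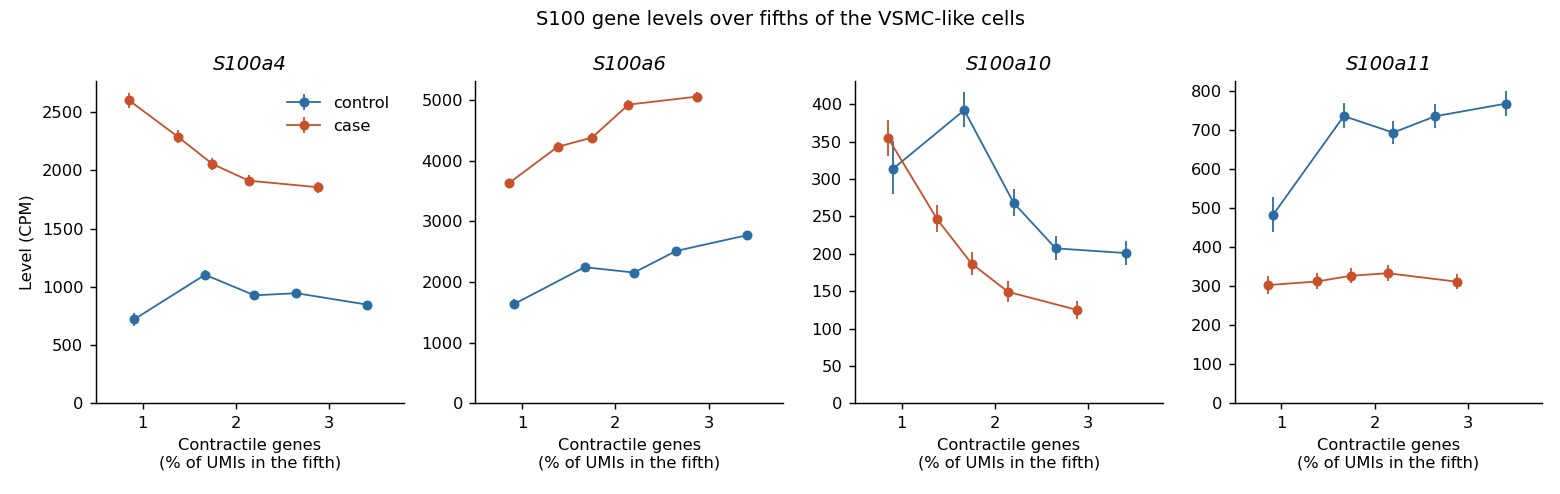
Level (CPM) of S100a4, S100a6, S100a10 and S100a11 in 5 bins of the VSMC-like cells of the control (blue) and case (orange) library, placed by the share of UMIs from 5 contractile genes in the bin (%), with exact 95% Poisson intervals. In case S100a4 goes from 2603 down to 1856 CPM and S100a6 from 3627 up to 5061 CPM as the contractile share grows.

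VSMC-like cells with high Spp1 (osteopontin) or Notch1 held slightly more S100a4 than the rest. In control it was at 1092 CPM in Spp1-high, 1042 in Notch1-high and 884 in the remaining cells, and in case at 2373, 2337 and 2029. S100a10 was at 369, 387 and 229 CPM in control and at 273, 303 and 177 in case. The ratios of case over control for S100a4 were 1.12 (1.06 to 1.19), 1.17 (1.06 to 1.27) and 1.20 (1.16 to 1.24), with intervals that overlap.

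In fibroblast-like cells S100a10 had the largest log2 ratio in size among the members with at least 100 CPM. It was at 2062 CPM (2031 to 2093) in control and 1087 (1064 to 1110) in case, a ratio of −0.92 (−0.96 to −0.89). S100a11 was at 235 (225 to 246) and 130 CPM (122 to 138), a ratio of −0.86 (−0.97 to −0.75). S100a6 was at 2044 (2013 to 2075) and 3243 CPM (3203 to 3283), a ratio of 0.67 (0.64 to 0.69). S100a4, which is also known as fibroblast-specific protein, was lower here than in VSMC-like cells of either library, with 580 CPM (564 to 596) in control and 874 (854 to 895) in case. Its difference of 1.51-fold lay at the threshold, and was under it in 4 of the alternatives. Of the 4 members at 100 CPM or more, 2 were counted as higher, where 7.93% of 1336 genes were, and 2 as lower, where 15.0% were, and their median ratio was −0.14 against −0.07 over all genes. S100b was found at 68.1 CPM (62.6 to 74.0) in control and 76.9 (70.9 to 83.3) in case fibroblast-like cells, which was 11-fold its level in VSMC-like cells of each library. S100a13 (55.5 and 64.9 CPM), S100a16 (28.4 and 20.8 CPM) and S100a1 (9.47 and 3.58 CPM) were low.

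Subsets of fibroblast-like cells were set by Pi16, a marker of adventitial fibroblasts, by Gfpt2, an enzyme of hexosamine synthesis, and by Postn (periostin). S100a10 was highest in Gfpt2-high cells, with 2501 CPM in control and 1284 CPM in case, against 1620 and 931 in Pi16-high cells. S100a6 had the reverse order, with 1616 and 2711 CPM in Gfpt2-high and 2645 and 4493 CPM in Pi16-high cells. S100a4 was also lower in Gfpt2-high (497 and 860 CPM) than in Pi16-high cells (694 and 1038 CPM). S100b was at 80.7 CPM (69.9 to 92.6) in control and 126 CPM (106 to 149) in case Pi16-high cells, a ratio of 0.64 (0.32 to 0.97), and at 41.7 and 45.5 CPM in Gfpt2-high cells. In fibroblast-like cells outside these subsets S100b was at 96.9 CPM (84.4 to 111) in control and 93.7 CPM (82.9 to 106) in case. Postn-high cells were 80 in case but 4 in control, so that no ratio is given.

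Endothelial-like cells had the highest S100a6 level of the 6 classes, with 4706 CPM (4502 to 4918) in control and 6527 (6380 to 6677) in case. S100a16 was also highest there, with 220 CPM (177 to 269) in control and 92.3 (75.5 to 112) in case, a ratio of −1.25 (−1.67 to −0.83). S100a4 was at 1315 (1208 to 1429) and 1653 CPM (1579 to 1729), S100a10 at 684 (608 to 768) and 484 CPM (444 to 526), and S100a11 at 507 (442 to 580) and 258 CPM (230 to 290). Of the 5 members at 100 CPM or more, 0 were counted as higher, where 18.1% of 1423 genes were, and 2 as lower, S100a11 and S100a16, where 24.3% were. Their median ratio was −0.50 against −0.08 over all genes. S100a16 was under 100 CPM in case and entered the count only through the control library. A TMM scaling raised all endothelial ratios by 0.30, and S100a4 (0.63) and S100a6 (0.78) then passed 1.5-fold.

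The endothelial-like class held cells of unlike S100 levels. In cells in which neither Plvap nor Emcn was found, S100a4 was at 1542 CPM (1413 to 1680) in control and 2391 (2278 to 2507) in case, whereas with Plvap, a protein of fenestral diaphragms, or Emcn (endomucin) it was at 402 (278 to 562) and 443 CPM (383 to 511). S100a6 was at 5476 and 8220 CPM without and at 1620 and 3752 CPM with these genes. S100a10 had the reverse order, with 604 and 398 CPM without and 1005 and 624 CPM with them. Plvap or Emcn was found in 11 of 55 control and 99 of 249 case endothelial-like cells, and the S100a4 ratio in cells without them, 0.63 (0.49 to 0.78), was above that of the whole class, 0.33 (0.19 to 0.47). S100a6 had a ratio of 0.59 (0.51 to 0.66) without and 1.21 (0.96 to 1.47) with Plvap or Emcn. Both lay above its ratio in the whole class, 0.47 (0.40 to 0.54). The part of the unlike cell mix in the ratios and counts of the whole class was not tested. Cells without and with these genes had a median of 6981.5 and 8197 UMIs in control and of 3882.5 and 4118 in case. At such depths a cell can lack a UMI of a gene it expresses, more so in the case library.

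**Figure D4:**
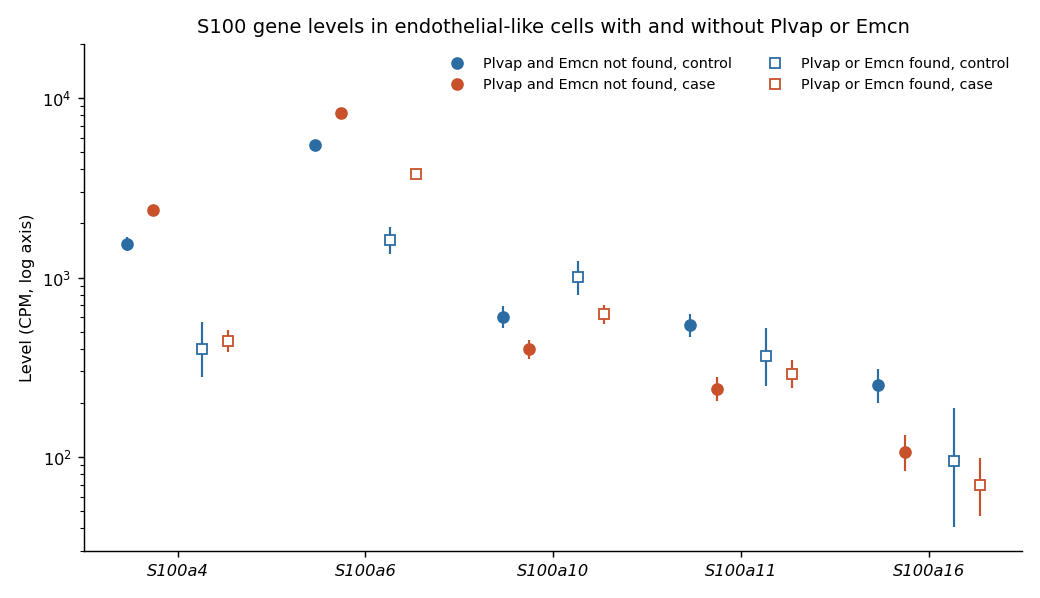
Level (CPM, log axis) of 5 S100 genes in endothelial-like cells in which neither Plvap nor Emcn was found (filled circles, 44 control and 150 case cells) and in which either was found (open squares, 11 control and 99 case cells), in the control (blue) and case (orange) library with exact 95% Poisson intervals. S100a4 and S100a6 were higher in the cells without Plvap and Emcn in both libraries, and S100a10 was lower.

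Among the classes set by markers, macrophage-like cells showed the largest ratios for S100a4 and S100a6. S100a4 was at 237 CPM (182 to 304) in control and 1916 (1796 to 2043) in case, a ratio of 3.01 (2.65 to 3.41), and S100a6 at 109 (73.1 to 157) and 812 CPM (735 to 896), a ratio of 2.90 (2.35 to 3.49). S100a10 was at 1103 (980 to 1237) and 888 CPM (806 to 975), a ratio of −0.31 (−0.53 to −0.10), and S100a11 at 128 (88.6 to 179) and 147 CPM (115 to 185), a ratio of 0.20 (−0.41 to 0.83). Of the 4 members at 100 CPM or more, 2 were counted as higher, where 12.9% of 1485 genes were, and 0 as lower, where 13.7% were. Their median ratio was 1.55 against −0.05 over all genes. The control levels rest on 63 UMIs of S100a4 and 29 of S100a6 in 33 cells. Of these S100a4 UMIs, 41 came from only 2 cells and 22 from the other 31. The interval of the S100a4 ratio takes no account of this spread between cells. Vascular smooth muscle RNA was present in this class: at the share of VSMC markers, 3.66% of that in VSMC-like cells in control and 2.67% in case, it would bring 34.3 and 56.4 CPM of S100a4 and 86.6 and 120 CPM of S100a6. The control level of S100a6 (109 CPM) thus lay near this amount, and its ratio has no firm size. With this RNA subtracted the ratio was 3.18 for S100a4 and 4.93 for S100a6.

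S100a4 UMIs were not found in all macrophage-like cells of the case library. At least 1000 CPM was reached by 34 of 93 case and 2 of 33 control cells, while 37 case and 20 control cells had no S100a4 UMI. In the 34 case cells S100a6 was at 1915 CPM (1724 to 2123), against 116 (81.0 to 162) in the other 59, and S100a10 was at 1352 (1192 to 1528) against 595 (511 to 688). The 2 kinds of case cells held the macrophage genes Csf1r (710 and 1003 CPM), C1qa (2100 and 2149 CPM) and Mrc1 (621 and 1133 CPM) and had a median of 4997 and 4950 UMIs. The macrophage genes did not all go 1 way. Cd163 was also lower in the first kind (179 and 302 CPM), whereas Ncf4 (216 and 110 CPM) and Cd68 (526 and 462 CPM) were higher. Anxa2 was at 368 CPM in the first and 83.0 CPM in the second. The VSMC markers did not all go 1 way either. Tagln (158 and 203 CPM) and Myh11 (132 and 156 CPM) were lower in the 34 cells than in the other 59. Acta2 (31.6 and 19.9 CPM) and Myl9 (110 and 89.7 CPM) were higher. All VSMC markers together were at 505 and 575 CPM. These cells were split by S100a4 itself, so its own difference is no result. The size of the class difference depended on how the class was drawn. Among clusters made without the S100 genes, the macrophage-like cluster held 54 control and 130 case cells. Of these, 33 and 93 were macrophage-like by the marker rule as well, and 13 and 22 fell in no class. C1qa was at 973 and 1727 CPM in this cluster, against 1670 and 2130 CPM in the class set by markers. S100a4 was at 1053 and 2690 CPM in the cluster, a ratio of 1.35. S100a6 then had a ratio of 1.89, S100a10 one of −0.81 and S100a11 one of −1.17. Dcn, a fibroblast marker, was at 786 CPM in the control cells of this cluster and at 374 CPM in its case cells. The VSMC markers Tagln (1279 and 778 CPM) and Myl9 (403 and 216 CPM) were also higher in its control cells. The part of either kind of RNA, or of the cells outside the marker class, in the smaller ratios was not tested.

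**Figure D5:**
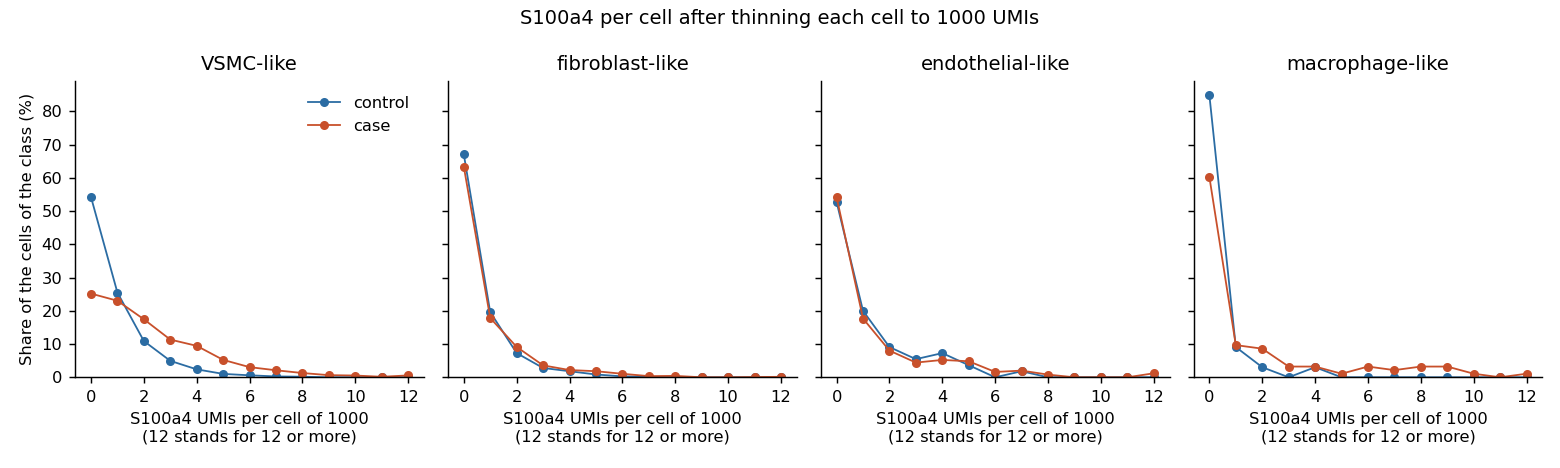
Share of cells (%) by their number of S100a4 UMIs after each cell was thinned to 1000 UMIs, in 4 cell classes of the control (blue) and case (orange) library. No S100a4 UMI was left in 54.2% of control and 25.2% of case VSMC-like cells, and in 84.8% of control and 60.2% of case macrophage-like cells.

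Schwann-like cells had the highest S100b level, with 798 CPM (624 to 1004) in control and 544 (435 to 672) in case, a ratio of −0.55 (−1.02 to −0.08). S100b was absent from macrophage-like cells, with 0 UMIs in both libraries, which allows up to 11.3 CPM in control and 6.11 CPM in case, and 2 UMIs were counted in all endothelial-like cells. The Schwann-like class also had the highest S100a4 level in case, with 5652 CPM (5287 to 6035) against 1540 (1294 to 1818) in control, a ratio of 1.88 (1.62 to 2.14), in 50 and 18 cells. S100a6 was at 1894 and 3361 CPM there, a ratio of 0.83 (0.58 to 1.08). S100a10 (1772 and 1671 CPM) and S100a11 (487 and 481 CPM) had ratios of −0.09 (−0.37 to 0.21) and −0.02 (−0.57 to 0.55). Fibroblast markers took 0.183% of UMIs in control and 0.465% in case Schwann-like cells, and their part in these levels was not tested. In the cells with both VSMC and fibroblast markers S100a4 was at 887 and 1716 CPM, S100a6 at 2360 and 4469, S100a10 at 906 and 578, and S100a11 at 575 and 254. These cells had a median of 2278 UMIs in control and 8021 in case, whereas the other classes were deeper in control. Among clusters made without the S100 genes, the one with both markers held 64 control and 0 case cells. The 2 libraries may thus hold unlike cells in this class.

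The order of the classes set by markers changed between the libraries for S100a4. In control Schwann-like and endothelial-like cells came first with overlapping intervals, then VSMC-like cells and those with both markers, which also overlapped. Fibroblast-like cells followed, and macrophage-like cells came last. The macrophage-like cluster drawn without the S100 genes, at 1053 CPM, would stand above VSMC-like cells, but it also held cells outside the macrophage-like class. In case Schwann-like cells came first, and VSMC-like and macrophage-like cells followed with levels of 2112 and 1916 CPM. Next came the cells with both markers and endothelial-like cells with overlapping intervals, and fibroblast-like cells came last. The macrophage-like cluster drawn without the S100 genes, at 2690 CPM in case, would stand above VSMC-like cells here too, with the same limit. For S100a10 the order was kept more closely, with fibroblast-like and Schwann-like cells at the top and VSMC-like cells last in both libraries.

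S100a8 had 0 UMIs in all barcodes of both libraries, kept or not. S100a9, its partner in calprotectin, had 2 UMIs in 2 kept control cells and 25 UMIs in 12 kept case cells, and 100 UMIs over all deposited barcodes. Its highest level in a class was 3.52 CPM, in case endothelial-like cells. The 8 other listed symbols that start with S100 ranged from 0 to 26.0 CPM over the classes. The highest of them was S100pbp, whose protein binds S100P and is no family member, and 5 of the 8 had 0 UMIs in all kept cells.

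The pattern of S100a4 over the 11 units of class and library with at least 20 cells was most like that of Brd9 (Pearson's r = 0.968), Aamp (0.946) and Pin4 (0.939), among 2965 genes on the log2(CPM + 10) scale. For S100b these were Gpc1 (0.985), Sema3b (0.981) and Col5a3 (0.981). The units of a library share its depth and its free RNA, and the values are a description. Over single cells thinned to 1000 UMIs, Spearman's rho of S100a4 and S100a6 was 0.63 in 55 control and 0.52 in 249 case endothelial-like cells, and 0.24 in 1173 control and 0.21 in 2654 case VSMC-like cells. It was 0.14 in 714 control and 0.20 in 1423 case fibroblast-like cells, and in macrophage-like cells −0.13 in 33 control and 0.49 in 93 case cells.

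Of 19 partner and calmodulin genes 18 were listed, since Cd36 was not. In VSMC-like cells 10 of them reached 100 CPM, of which 0 were counted as higher and 2 as lower, against 9.83% and 16.5% of all genes at this level. Bsg (basigin, a receptor of S100A9) was at 383 CPM in control and 227 CPM in case, a ratio of −0.76 (−0.82 to −0.69), and the calmodulin gene Calm2 had a ratio of −0.62 (−0.68 to −0.56). Bsg was also the 1 of 9 that was lower in fibroblast-like cells, with 442 and 255 CPM, where 15.0% of all genes were lower. Bsg, Calm2 and Anxa11 were the 3 of 10 that were lower in endothelial-like cells, where 24.3% of all genes were. Anxa11, at 142 CPM in control and 73.0 CPM in case there, entered only through the control library. In macrophage-like cells 1 of 9 was higher, where 12.9% of all genes were, and these counts lie near the shares over all genes. It was Anxa2, the S100a10 partner, with 75.3 CPM (20 UMIs) in control and 193 CPM (95 UMIs) in case, a ratio of 1.36 (0.65 to 2.14). Anxa2 entered this count only through the case library, in which it was higher. Anxa2 was at 203 and 213 CPM in VSMC-like cells, and at 212 and 177 CPM in fibroblast-like cells, in which S100a10 differed most. Anxa1, the S100a11 partner, was at 2086 CPM in control and 1584 CPM in case fibroblast-like cells, a ratio of −0.40 (−0.43 to −0.36), and at 461 and 370 CPM in VSMC-like cells. Cacybp, the calcyclin-binding protein, was at 133 and 162 CPM in VSMC-like cells, a ratio of 0.28 (0.19 to 0.37). Ager, the receptor RAGE, had at most 2.36 CPM and Tlr4 at most 16.3 CPM in the 6 classes. Myh9, the S100a4 partner, had 1 UMI over these classes together. Whether Myh9 was not expressed or its reads were not counted was not tested, so its level is not known.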

How the data were processed

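Single-cell RNA was measured in 2 libraries, control and case, each pooled from the arteries of 2 rats. The authors deposited a matrix of UMI counts made with Cell Ranger 3.1.0 (file header), with the build Rnor_6.0 and Seurat named in the submitters' processing notes. Barcodes were given to a library by the number of barcodes that carry each suffix, 3321 for control and 5656 for case. Of 24968329 and 28232614 UMIs in these barcodes, cells were kept with at most 20% mitochondrial UMIs, UMI and gene numbers within 2 SD of the library's mean on the log10 scale and within 3 robust SD of a linear fit between both, and at least 1000 UMIs, which left 67.1% and 86.5% of barcodes. Both libraries shared 21 barcode sequences, 5 of them among kept cells.

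Classes were set by each cell's share of UMIs from marker lists, with thresholds set after the marker distributions had been seen. Of the markers, 3 were not among the listed genes. Of the gated cells, 98.7% of VSMC-like, 97.6% of fibroblast-like, 99.7% of endothelial-like and 100% of macrophage-like cells lay in clusters of that name made without the S100 genes. The reverse did not hold for macrophages, since 33 of the 54 control and 93 of the 130 case cells in that cluster were gated as macrophage-like. Subsets of VSMC-like and fibroblast-like cells used UMIs of a single gene per 10000, with at least 2 UMIs of that gene. Endothelial-like cells were split by whether any UMI of Plvap or Emcn was found. Ratios carry exact conditional binomial intervals, levels exact Poisson intervals and shares of cells exact Clopper-Pearson intervals, all at 95%, and a count of 0 allows 3 UMIs. Interval coverage was tested on data simulated with counting error alone, the error these intervals assume, so spread between cells or rats was not tested. Thinning drew 1000 UMIs from every cell with a fixed seed. Scrublet called 19 control cells and 1 case cell as doublets, too few to have worked, so doublets were left in for the main results.

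Named genes were the 10 members, 19 partner and calmodulin genes, the other S100 symbols as a group, and the 3 genes most like S100a4, S100a8 and S100b, which could not be found for S100a8. The members and lists were chosen with earlier results of these data known. Results were recomputed under 11 other settings, and under 1 more that was chosen after seeing the data, the subtraction of VSMC RNA at its marker share. Sequences came from RefSeq tables of GRCr8, whose coordinates were not combined with those of Rnor_6.0. Intervals were computed in Python 3.11.15 with scipy 1.17.1, clusters with scanpy 1.11.5, and TMM factors in R 4.3.3 with edgeR 4.0.16.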

Additional observations from a re-analysis of the deposited data

How the results depend on the processing

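Ratios of members were recomputed in VSMC-like, fibroblast-like, endothelial-like and macrophage-like cells, where both libraries held at least 20 UMIs of the gene. Those of Schwann-like cells and of cells with both markers were not. Of 278 recomputed values, 234 lay within the interval of the main ratio and 44 did not. Among the settings counted was the removal of the 19 control cells and 1 case cell called by Scrublet, which could hardly move a ratio. Of the 26 ratios, 22 kept their sign under each alternative run and 4 did not. These were S100a11 in macrophage-like cells (−1.17 to 0.71), S100a13 in endothelial-like (−0.25 to 0.34) and fibroblast-like cells (−0.07 to 0.29) and S100b in VSMC-like cells (−0.18 to 0.34). Across the alternatives the S100a4 ratio ran from 1.12 to 1.40 in VSMC-like, from 0.45 to 0.66 in fibroblast-like and from 1.35 to 3.24 in macrophage-like cells, and that of S100a10 in fibroblast-like cells from −0.98 to −0.86. The number of members counted as higher in fibroblast-like cells was 1 instead of 2 with clusters made without the S100 genes, with the mean of CPM per cell, with cells thinned to 1000 UMIs and with VSMC RNA subtracted, since S100a4 then missed 1.5-fold. With TMM scaling, 2 members instead of 0 were higher in endothelial-like cells. With a floor of 25 CPM, 2 members instead of 1 were lower in VSMC-like cells, and with the clusters 2 instead of 0 were lower in macrophage-like cells. TMM shifted the ratios by 0.12 in VSMC-like and 0.30 in endothelial-like cells. Macrophage-like and Schwann-like cells were few, which limits the depth of their levels, and S100a8 could not be measured. Balloon injury, artery side and library cannot be told apart. No paired analysis was possible because each group was 1 library that pooled the rats.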
